A study of Mus musculus with 12 samples.

Results

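Type I interferon-stimulated genes are the antiviral genes that a cell switches on when it senses an interferon. Their levels are described here in CMM cells, a transplantable GFP-marked mouse acute myeloid leukaemia, recovered from the spleen. The rule for the set uses no measured value, but its members were chosen with earlier results of these data known. It was defined by a list of 42 gene symbols. Of these, 41 were found among the 24310 named features of the deposited tables, and Rnf213 was not analysed here. Of the 41, 33 reached an RPKM (read density over a transcript, corrected for its length and for the library's size) of 1 or more in 4 or more of the 12 libraries, and these were tested. The other 8 were Ifit1, Ifit3, Oas1g, Oas2, Mx1, Mx2, Ifi44 and Rtp4. Of the 33, 8 had fewer than 4 libraries at this level outside the label PBS and so were kept because of the libraries in which they were high: Zbp1, Oas3, Cmpk2, Ifi203, Ifi204, Ifi27l2a, Xaf1 and Epsti1.

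Type I interferons bind the receptor pair IFNAR1 and IFNAR2 and activate the kinases JAK1 and TYK2. Signalling from them assembles the transcription factor complex ISGF3, which binds interferon-stimulated response elements in the promoters of target genes. CpG oligonucleotides are ligands of TLR9, an endosomal DNA receptor that can induce interferon, most of all in plasmacytoid dendritic cells, and that B cells also carry.

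Every library came from C57BL/6 mice that carried CMM cells given intravenously. Treatment began at about 1% GFP+ cells in blood and consisted of 3 intravenous injections on alternate days. The 3 labelled groups, with 4 libraries each, were PBS (the vehicle), CpG-scrODN (a CpG oligonucleotide joined to a scrambled sequence) and CpG-STAT3dODN (the same joined to a STAT3 decoy). The spleen was harvested 1 day after the final dose and c-Kit+ cells were enriched with a positive selection kit, so every group shared the transplant, the host strain and the selection. The series' design text adds a sort for GFP, which the extraction protocol does not list. The column header in each of the 12 files goes against its label. Files labelled PBS were headed DEC, files labelled CpG-scrODN were headed PBS and files labelled CpG-STAT3dODN were headed SCR. Groups are therefore called by their label, and no difference is assigned to a treatment. Whether each library came from its own mouse is not in the labels, so the p-values reflect only how far these samples spread, and part of that spread may be technical.

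Estimated depth was 31500000 to 36270000 reads per library. Kit was detected in every library, at 10.5 to 51.1 RPKM. Markers of other spleen cells were present too. The mean log2(RPKM + 1) of 15 B cell markers lay between 3.45 and 4.56 under the label PBS, between 0.77 and 1.43 under CpG-scrODN and between 1.37 and 2.34 under CpG-STAT3dODN, with none of the 15 at 0. Their summed RPKM was 218.4 to 816.4, 12.39 to 32.79 and 30.29 to 130.7 in the same order. The mean of 8 T cell markers was 1.32 to 2.26, 0.40 to 0.72 and 0.44 to 0.82, and that of 10 monocyte and macrophage markers was 3.24 to 3.62, 2.64 to 3.11 and 2.72 to 3.13. Markers of c-Kit progenitors and leukaemia, 8 genes, were at 4.76 to 5.19, 4.17 to 4.55 and 4.55 to 4.99. They did not move together, and for CpG-scrODN minus PBS 5 of the 8 were below 0 and 3 above. Kit had means of 21, 32.21 and 35.45 RPKM in the same order, and Mpo 99.96, 23.65 and 47.45. Neutrophil markers, 8 genes, overlapped between groups, at 5.77 to 7.55, 4.66 to 6.5 and 5.95 to 7.34. For CpG-scrODN minus PBS all 8 were below 0 with a median of -1.297, 5 at an unadjusted p under 0.05 and none called by limma. The mean of 6 NK cell markers was 1.12 to 1.43, 0.75 to 1.21 and 0.85 to 0.96. Of these marker lists only the B cell mean was used as a covariate, and the part of the others was not tested. Plasmacytoid dendritic cell markers followed the same order, at 1.13 to 1.57, 0.33 to 0.50 and 0.54 to 0.68 over 7 genes, of which Ly6d and Tcf4 were tested. Most of that order lay in Ly6d, with means of 69.04, 2.43 and 5.04 RPKM. Siglech, a defining gene of that cell, did not follow it, with means of 0.0986, 0.114 and 0.131 RPKM and no library above 0.212. Replicate 4 labelled PBS and replicate 4 labelled CpG-STAT3dODN stood apart by a low level of the immediate-early gene Fos, at 12.9 and 5.91 RPKM against 486 to 1156 in the other 10. In bulk RNA, fewer cells of a type and less RNA per cell cannot be told apart.

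The response element was looked for in the RefSeq promoters of the set, because ISGF3 acts on its target genes through it. The motif GAAA, any 2 bases, GAAA was searched on both strands from 250 bases before to 50 bases after the transcription start, in the GRCm38.p6 build. A promoter was held for 29 of the 41 genes, and 14 of these 29 (48.3%) had a match, against 4.0% of the 27025 genes searched. The related motif GGAA, any 2 bases, GAAA occurred in 6 of the 29 genes (20.7%, against 3.2% of all), and none of its 7 matches shared a base with a match of the first motif. The STAT dimer motif TTCNNNGAA, which reads the same on both strands, occurred in 7 of the 29 (24.1%, against 9.6%). In Bst2 and Ifitm3 its match shared bases with a match of the first motif, and in Adar with a match of the related motif. A match is a description of the sequence, and none was tested for binding. The sequences below are those of the called genes with a match, Ifi203, Trim30a and Ifitm3, followed by Isg15 and Rsad2, whose log2 levels had the largest SD within each labelled group, and Oas1a, whose level hardly varied. They run 5′ to 3′ and end at the base before the start, except for Ifitm3, where both matches lay 3 to 29 bases into the transcript and only that stretch is given. Capitals mark the bases of matches to the first motif, which are on the opposite strand in Trim30a and Rsad2.
Ifi203 (chr1:173942493-173942742, minus strand): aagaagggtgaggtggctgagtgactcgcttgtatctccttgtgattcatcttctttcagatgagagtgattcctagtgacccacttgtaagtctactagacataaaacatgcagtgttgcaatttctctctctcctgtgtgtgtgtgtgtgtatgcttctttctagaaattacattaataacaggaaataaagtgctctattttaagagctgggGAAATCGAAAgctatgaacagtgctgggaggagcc
Trim30a (chr7:104465194-104465443, minus strand): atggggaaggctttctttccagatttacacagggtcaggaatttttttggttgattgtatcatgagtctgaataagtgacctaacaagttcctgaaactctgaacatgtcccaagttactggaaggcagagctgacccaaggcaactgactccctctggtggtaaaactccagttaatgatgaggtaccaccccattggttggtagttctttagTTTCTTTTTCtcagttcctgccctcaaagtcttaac
Ifitm3 (chr7:141010716-141010742, minus strand): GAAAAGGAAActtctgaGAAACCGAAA
Isg15 (chr4:156200819-156201068, minus strand): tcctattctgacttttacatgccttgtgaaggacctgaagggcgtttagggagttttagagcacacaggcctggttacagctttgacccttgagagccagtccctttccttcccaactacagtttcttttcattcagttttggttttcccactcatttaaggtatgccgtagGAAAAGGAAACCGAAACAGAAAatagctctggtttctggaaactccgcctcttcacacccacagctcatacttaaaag
Rsad2 (chr12:26456453-26456702, minus strand): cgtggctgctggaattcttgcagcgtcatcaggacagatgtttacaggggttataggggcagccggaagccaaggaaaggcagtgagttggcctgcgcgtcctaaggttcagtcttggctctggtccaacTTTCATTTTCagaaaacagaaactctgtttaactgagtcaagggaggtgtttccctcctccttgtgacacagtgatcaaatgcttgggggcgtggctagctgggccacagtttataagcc
Oas1a (chr5:120907526-120907775, minus strand): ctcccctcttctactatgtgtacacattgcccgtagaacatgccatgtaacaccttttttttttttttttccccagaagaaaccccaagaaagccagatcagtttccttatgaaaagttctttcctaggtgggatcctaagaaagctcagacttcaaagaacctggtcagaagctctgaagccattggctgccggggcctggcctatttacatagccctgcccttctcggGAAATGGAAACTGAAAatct
The match in Ifi203 began 35 bases before the start and the one in Trim30a 36 bases before it. Another promoter held for Ifi203 had no match, and in another promoter of Trim30a the match began 3 bases into the transcript. Isg15 had 3 overlapping matches, beginning 78, 72 and 66 bases before the start, and Oas1a had 2, beginning 20 and 14 bases before it. A match therefore stood both in genes that differed between the groups and in Oas1a, which is described below as nearly level. Epsti1, Cmpk2 and Samd9l had no match to the first motif in this window, Epsti1 had a match to the related motif, and Ifi27l2a had no promoter in the table.

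The study compared cells after TLR9 stimulation with and without a STAT3 decoy, and the first comparison here is between the libraries labelled CpG-scrODN (headed PBS) and those labelled PBS (headed DEC). Ifi27l2a, Ifi203, Trim30a, Epsti1, Cmpk2, Ifitm3 and Samd9l were lower in the libraries labelled CpG-scrODN, by 1.96-fold in mean RPKM for Samd9l to 13.5-fold for Ifi27l2a. None of the set was higher. Ifi27l2a, Ifi203, Epsti1 and Cmpk2 are among the genes that passed the level filter because of the libraries labelled PBS. The called genes were 7 of the 33 tested members at a Benjamini-Hochberg adjusted p under 0.05 by limma on log2(RPKM + 1), where 4.04% of all 10886 genes tested were called lower and 0.11% higher. With quantile normalization the split of all called genes moved from 440 lower and 12 higher to 321 lower and 62 higher, and the 6 members then called were all lower, Cmpk2 being the one lost (adjusted p 0.0566). The difference was below 0 in 30 of the 33, against 59.9% of all genes. At an unadjusted p under 0.05, 18 of the 33 were lower, against 10.9% of all genes. The median difference was -0.456 over the 33 and -0.046 over all genes. In 14 of the 33 all 4 libraries labelled CpG-scrODN lay below all 4 labelled PBS, which was so for 10% of all genes. The counts of 30, 18 and 14 and the median of -0.456 include the 8 members that passed the level filter because of the libraries labelled PBS. For these 8 the filter favours this direction, and no count was made without them. B cell markers differed in the same direction, with 14 of 14 tested called lower. With the B cell marker mean as a covariate, limma called none of the 33, with 3 at an unadjusted p under 0.05, and the sign turned for 5 of the 7. The markers separate the libraries labelled PBS from all others, so the label and the marker level cannot be told apart.

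**Figure D1:**
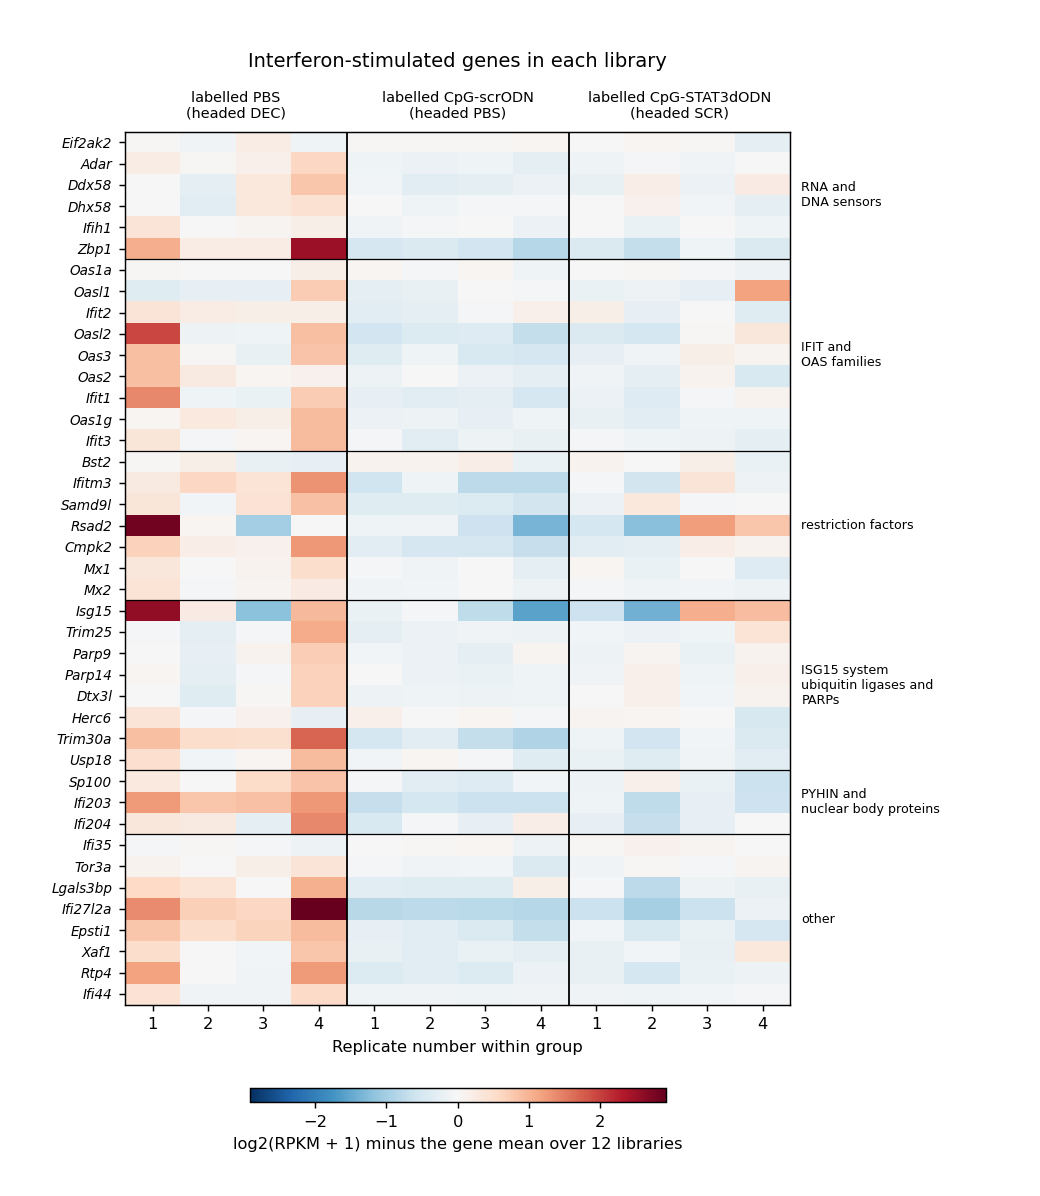
Each row is 1 of the 41 genes, grouped by role, and each column is 1 library, ordered by label and replicate number; colour gives log2(RPKM + 1) minus the gene's mean over the 12 libraries. Replicate 4 labelled PBS is the highest library for 27 of the 41 genes and replicate 1 labelled PBS for 10, and Eif2ak2, Oas1a, Bst2 and Ifi35 are nearly level across all 12.

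The libraries labelled CpG-STAT3dODN (headed SCR) were compared with the same 4 libraries labelled PBS, so the first 2 comparisons share these samples. Ifi27l2a, Ifi203, Trim30a and Epsti1 were lower in the libraries labelled CpG-STAT3dODN, by 3.21-fold in mean RPKM for Epsti1 to 9.36-fold for Ifi27l2a. They were 4 of the 33 by limma, with 1.83% of all genes called lower and 0.0276% called higher. Ifi27l2a, Ifi203 and Epsti1 passed the level filter because of the libraries labelled PBS here too. With no level filter limma called Ifi203 and Epsti1 only, and adjusted p-values were 0.0592 for Trim30a and 0.0536 for Ifi27l2a. A fit of these 2 groups alone also ended the calls of Trim30a (adjusted p 0.133) and Ifi27l2a (0.152). The difference was below 0 in 30 of the 33, against 53.7% of all genes, and its median was -0.364 against -0.011. At an unadjusted p under 0.05, 15 of the 33 were lower, against 6.7% of all genes. Groups did not overlap, with the label PBS higher, for 9 of the 33 and for 4.23% of all genes. The counts of 30, 15 and 9 and the median of -0.364 again include the 8 members kept because of the libraries labelled PBS. Of the 14 B cell markers tested, 12 were called lower here as well. With the B cell marker mean as a covariate none of the 33 was called, with 5 at an unadjusted p under 0.05.

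The last comparison set the libraries labelled CpG-STAT3dODN against those labelled CpG-scrODN. None of the 33 was called by limma, where 0% of all genes were called. The fit shares 1 estimate of spread with the libraries labelled PBS, which are outside this comparison. The median SD of the members was 0.425 under that label, against 0.141 under CpG-scrODN and 0.232 under CpG-STAT3dODN. At an unadjusted p under 0.05 there was 1 member, Samd9l, against 2.71% of all genes, and with library quality weights limma called 2 members higher, Ifit2 and Ifi203, where 4.89% of all genes were called higher. The difference of Samd9l was 0.43 (95% interval 0.06 to 0.80), with an adjusted p of 0.96. Adar, Cmpk2, Dtx3l and Samd9l had 4 libraries labelled CpG-STAT3dODN above all 4 labelled CpG-scrODN, as had 3.38% of all genes. The intervals leave room for sizeable differences in either direction for the variable genes, for example 0.63 (95% interval -1.01 to 2.27) for Isg15, and are narrow for the level ones, for example 0.07 (95% interval -0.09 to 0.22) for Ifi35.

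**Figure D2:**
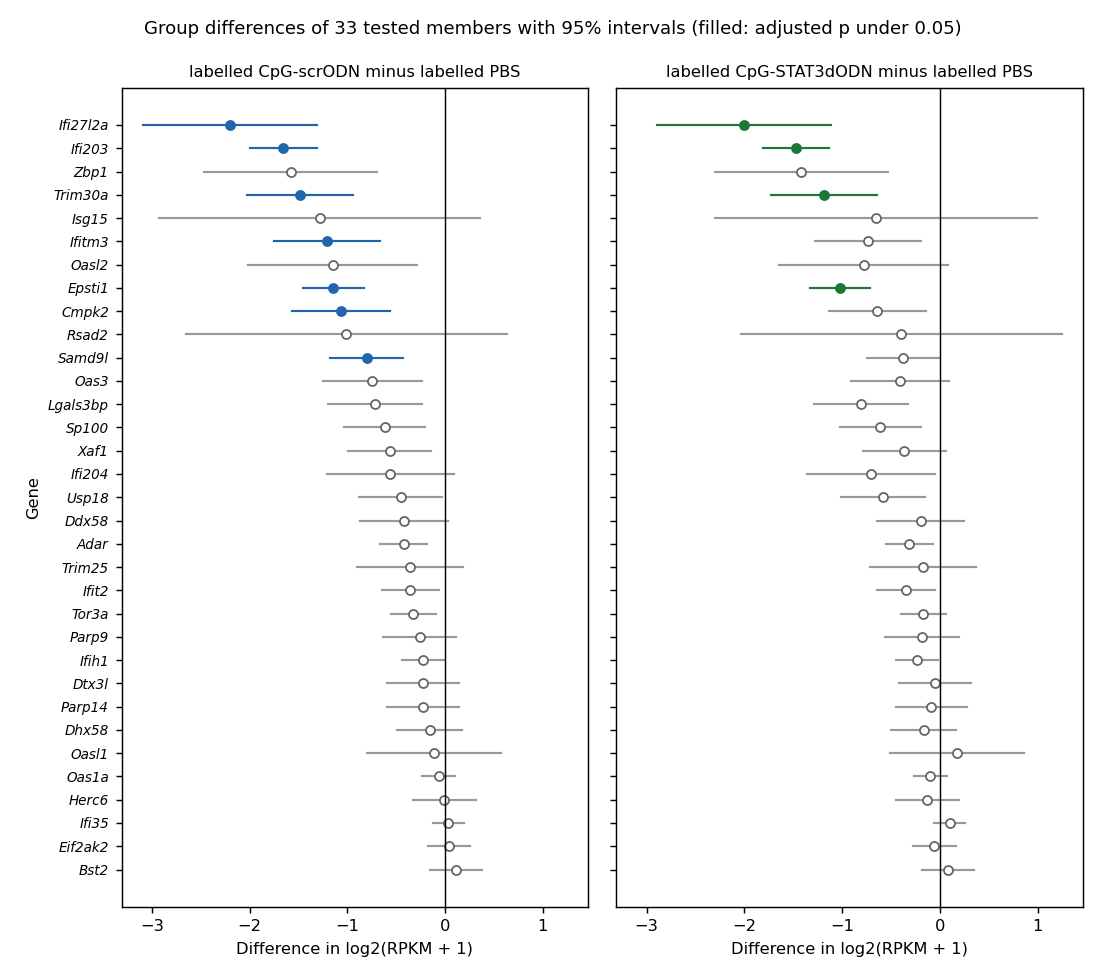
Each point is the difference in log2(RPKM + 1) for 1 of the 33 tested genes, with its 95% interval from limma. There is 1 panel for CpG-scrODN minus PBS and 1 for CpG-STAT3dODN minus PBS, and filled points have an adjusted p under 0.05. The panels hold 7 and 4 filled points, and all 11 filled points lie below 0.

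Sensors of foreign RNA and DNA form the first role. Ddx58 (RIG-I), Ifih1 (MDA5) and Dhx58 (LGP2) detect viral RNA, Zbp1 binds Z-form nucleic acid, Eif2ak2 encodes the kinase PKR and Adar edits double-stranded RNA. None of the 6 was called in any comparison, and the median difference was -0.327 for CpG-scrODN minus PBS and -0.214 for CpG-STAT3dODN minus PBS. Eif2ak2, the most abundant, was at 12.01, 10.7, 13.7 and 10.6 RPKM in replicates 1 to 4 labelled PBS, 11.9, 11.9, 12.02 and 12.2 in those labelled CpG-scrODN and 11.6, 12.2, 11.99 and 9.29 in those labelled CpG-STAT3dODN. Its groups overlapped, and the highest of the 12 values was 1.47 times the lowest. Zbp1 varied far more, from 0.413 to 0.872 RPKM in the libraries labelled CpG-scrODN and from 1.94 to 13.2 in those labelled PBS. These groups did not overlap, with a difference of -1.58 ± 0.40 (SE) and an adjusted p by limma of 0.0519. Replicate 4 labelled PBS held the high value, and without it the difference was -1.09 with an adjusted p of 0.0143. Ddx58 spanned 2.91 to 7.66 RPKM over the 12 libraries, Ifih1 2.57 to 4.28 and Dhx58 2.74 to 5.40, and their differences for CpG-scrODN minus PBS were -0.42, -0.23 and -0.16. Adar was close to the threshold, with a difference of -0.42 ± 0.11 (SE) and an adjusted p by limma of 0.0567. Leaving out 1 other library also brought calls in the comparison of CpG-scrODN with PBS. Without replicate 2 labelled PBS, Zbp1, Adar and Sp100 had adjusted p-values by limma of 0.031, 0.0301 and 0.0486. Without replicate 3 labelled PBS, those of Zbp1, Oas3 and Lgals3bp were 0.0271, 0.0229 and 0.0363, and Lgals3bp was then called for CpG-STAT3dODN minus PBS as well, at 0.0431.

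The IFIT proteins bind foreign RNA ends, and the OAS enzymes make the second messenger that activates RNase L. Of these 9 genes 5 were tested and none was called, with medians of -0.357 and -0.345 against the label PBS. Oas1a, with the highest mean RPKM of these genes, was at 13.6, 13.1, 13.3 and 15.1 RPKM in replicates 1 to 4 labelled PBS, 13.8, 12.8, 13.9 and 11.9 in those labelled CpG-scrODN and 13.3, 13.4, 12.7 and 11.8 in those labelled CpG-STAT3dODN. All 3 groups overlapped and the highest value was 1.28 times the lowest. The neighbouring paralog Oas1g, which is separated from it by 8643 bases on chromosome 5, did not exceed 1.57 RPKM in any library. Reads that fit more than 1 similar gene can be assigned to either, so the split between Oas1a and Oas1g is uncertain, as it is between Ifit3 and its near-identical copy Ifit3b and among Ifi203, Ifi204 and Mndal. Oas3, at 0.483 to 2.86 RPKM, and Oasl2, at 1.01 to 11.6, differed by -0.74 and -1.15 for CpG-scrODN minus PBS, with adjusted p-values by limma of 0.118 and 0.163. For Ifit2 every library of both other groups lay below every library labelled PBS, with differences of -0.36 ± 0.13 and -0.35 ± 0.13 (SE) and adjusted p-values by limma of 0.209 and 0.37.

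The 8 genes under the level filter belong mostly to these families and to the Mx genes. Mx proteins are GTPases that trap viral nucleocapsids, but RefSeq lists mouse Mx1 and Mx2 as transcribed pseudogenes. The highest value of the 8 genes in any library was 2.74 RPKM, in Ifit1. In 7 of the 8, all but Mx2, every library labelled CpG-scrODN lay below every library labelled PBS, with an exact permutation p of 0.0286, the smallest that 4 against 4 libraries can give. Of all 8422 features under the filter with a value above 0 in some library, 8.48% lay apart in this way. Some gaps were narrow. For Ifi44 the highest library labelled CpG-scrODN was at 0.0198 RPKM and the lowest labelled PBS at 0.0203. For Ifit3 these values were 0.313 and 0.319. The same p was reached for Ifit3, Oas1g, Mx2 and Rtp4 between the labels CpG-STAT3dODN and PBS, where 4.90% of those features lay apart with the label PBS higher. With no level filter limma called none of the 8, the lowest adjusted p being 0.111 for Oas1g.

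Restriction factors block steps of the viral life cycle. Of 7 genes 5 were tested, and Cmpk2, Ifitm3 and Samd9l were called lower for CpG-scrODN minus PBS, with none called for CpG-STAT3dODN minus PBS. Ifitm3 (chr7:141009590-141010744), a membrane protein that hinders viral fusion, was at 31.6, 40.3, 34.9 and 66.7 RPKM in replicates 1 to 4 labelled PBS, 17.1, 23.7, 15.02 and 15.01 in those labelled CpG-scrODN and 25.03, 17.7, 34.5 and 23.6 in those labelled CpG-STAT3dODN. Every library labelled PBS exceeded every library labelled CpG-scrODN, while those labelled CpG-STAT3dODN overlapped with both. The difference was -1.21 ± 0.25 (SE, adjusted p by limma 0.0154) in the first comparison and -0.74 ± 0.25 (adjusted p 0.249) in the other.

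Samd9l (chr6:3372257-3399571), which restrains translation and cell growth, was at 8.78, 6.17, 9.24 and 12.8 RPKM in replicates 1 to 4 labelled PBS, 4.98, 4.93, 4.73 and 4.25 in those labelled CpG-scrODN and 5.73, 8.37, 6.30 and 6.62 in those labelled CpG-STAT3dODN. The 4 libraries labelled CpG-scrODN were the lowest of the 12, and those labelled CpG-STAT3dODN overlapped with the label PBS. The difference was -0.80 ± 0.17 (SE, adjusted p by limma 0.0187), and that of CpG-STAT3dODN minus PBS was -0.37 ± 0.17 (adjusted p 0.523). Cmpk2 (chr12:26469117-26479837), a mitochondrial nucleotide kinase, was at 2.48, 1.49, 1.36 and 4.22 RPKM in replicates 1 to 4 labelled PBS, 0.716, 0.538, 0.549 and 0.353 in those labelled CpG-scrODN and 0.755, 0.802, 1.47 and 1.32 in those labelled CpG-STAT3dODN. It was below 1 RPKM in all 4 libraries labelled CpG-scrODN and above 1 in all 4 labelled PBS. The differences were -1.07 ± 0.23 (SE, adjusted p by limma 0.0202) and -0.64 ± 0.23 (adjusted p 0.304). The call for Cmpk2 was lost without replicate 1 labelled PBS or without any of replicates 2, 3 and 4 labelled CpG-scrODN, with adjusted p-values from 0.0577 to 0.066. Ifitm3 and Samd9l lost theirs without replicate 3 or replicate 4 labelled CpG-scrODN, at 0.0538 to 0.0621. Both were also lost without the 3 libraries numbered 4, at 0.0561 for Ifitm3 and 0.0558 for Samd9l. Limma then called 7 members, Zbp1 and Adar among them, and 6.11% of all genes.

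Bst2, the tetherin that holds budding virus at the cell surface, was the most abundant restriction factor, at 67.4, 74.3, 56.5 and 55.6 RPKM in replicates 1 to 4 labelled PBS, 70.7, 70.5, 75.5 and 57.3 in those labelled CpG-scrODN and 70.97, 65.3, 74.4 and 57.9 in those labelled CpG-STAT3dODN. The groups overlapped throughout, and the difference of CpG-scrODN minus PBS was 0.11 (95% interval -0.15 to 0.38), with an adjusted p by limma of 0.681.

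**Figure D3:**
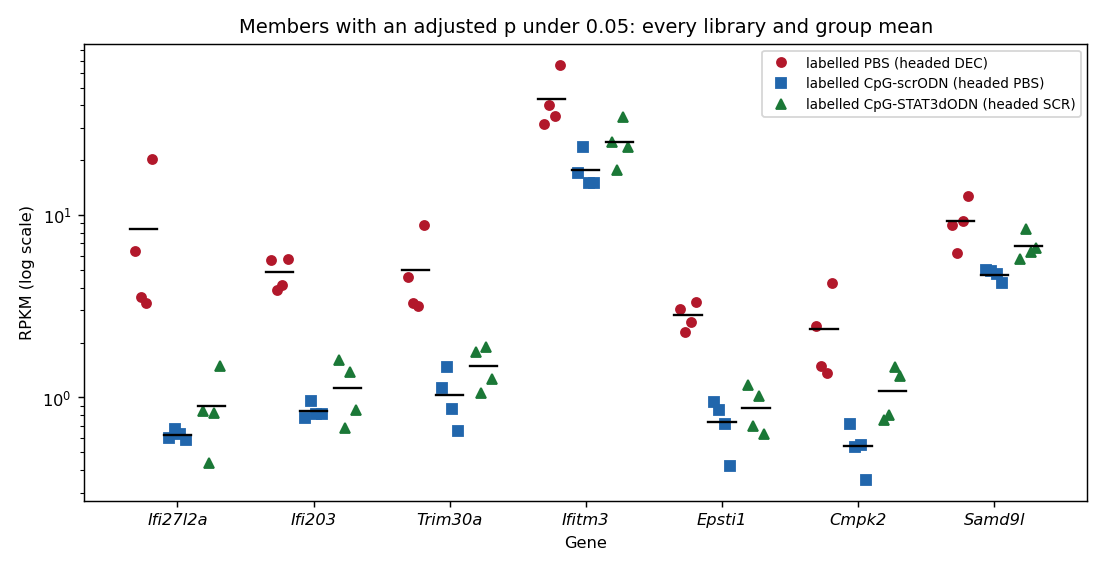
RPKM on a log axis for the 7 genes with an adjusted p under 0.05 in any comparison, with 1 point per library, coloured by label, and a bar at each group mean. For all 7 genes the 4 libraries labelled PBS lie above the 4 labelled CpG-scrODN, and for Ifitm3, Samd9l and Cmpk2 the libraries labelled CpG-STAT3dODN overlap with those labelled PBS.

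Isg15 encodes a ubiquitin-like modifier, which Usp18 removes and Herc6 attaches, and Trim25, Trim30a and Dtx3l are ubiquitin ligases. Parp9 and Parp14 transfer ADP-ribose. All 8 genes were tested, and 1, Trim30a, was called, in both comparisons with the label PBS. Trim30a (chr7:104409025-104465193) was at 4.60, 3.31, 3.18 and 8.86 RPKM in replicates 1 to 4 labelled PBS, 1.13, 1.46, 0.870 and 0.652 in those labelled CpG-scrODN and 1.78, 1.06, 1.88 and 1.26 in those labelled CpG-STAT3dODN. No library outside the label PBS reached the lowest of that group. The difference was -1.48 ± 0.25 (SE, adjusted p by limma 0.00466) for CpG-scrODN and -1.18 ± 0.25 (adjusted p 0.0323) for CpG-STAT3dODN. Leaving out any 1 library kept the first call. The other was lost without replicate 1 labelled PBS, replicate 1 or 3 labelled CpG-scrODN, or any library labelled CpG-STAT3dODN, with adjusted p-values from 0.0546 to 0.125. Reads of Trim30a can also be shared with its close paralogs in the same gene family.

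Dtx3l and Parp9 act as a pair, and their gene bodies overlap by 557 bases on chromosome 16. Their differences for CpG-scrODN minus PBS were -0.23 and -0.26, and that of Parp14 was -0.23, none of them past the threshold. Usp18, at 0.863 to 3.54 RPKM, and Herc6, at 2.42 to 5.06, differed by -0.46 and -0.01, also short of it. Over the 12 libraries Dtx3l spanned 5.48 to 12.2 RPKM and Parp9 6.70 to 14.2, and both were highest in replicate 4 labelled PBS.

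Isg15 was at 96.9, 18.4, 6.16 and 30.4 RPKM in replicates 1 to 4 labelled PBS, 13.3, 14.8, 8.75 and 4.54 in those labelled CpG-scrODN and 9.67, 5.20, 33.3 and 29.7 in those labelled CpG-STAT3dODN. All 3 groups overlapped, with the label PBS spanning 6.16 to 96.9 RPKM, and the highest of the 12 values was 21.4 times the lowest. The difference of CpG-scrODN minus PBS was -1.28 (95% interval -2.93 to 0.36), with an adjusted p by limma of 0.441. Rsad2, the restriction factor viperin, which makes a chain-terminating nucleotide, varied even more, at 21.05, 2.26, 0.553 and 2.11 RPKM in replicates 1 to 4 labelled PBS, 1.87, 1.90, 1.05 and 0.221 in those labelled CpG-scrODN and 1.19, 0.327, 6.32 and 4.43 in those labelled CpG-STAT3dODN. Its highest value was 95.3 times its lowest, and its difference was -1.01 (95% interval -2.66 to 0.63), with an adjusted p by limma of 0.55. Without replicate 1 labelled PBS the difference of CpG-scrODN minus PBS was -0.64 for Isg15 and -0.23 for Rsad2, and that of CpG-STAT3dODN minus PBS was -0.01 and 0.39, so the last of these turned its sign.

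Rsad2 was related to markers of red cell precursors across libraries, and the relation of Isg15 missed the threshold over all genes. Both were noticed after the values were seen. The mean log2(RPKM + 1) of 8 erythroid markers was 8.08, 6.54, 4.15 and 5.07 in replicates 1 to 4 labelled PBS, 5.86, 5.86, 5.39 and 4.62 in those labelled CpG-scrODN and 5.35, 4.09, 7.14 and 6.30 in those labelled CpG-STAT3dODN. None of the 8 markers was at 0, and their summed RPKM ran from 257.5 to 7308, 468.4 to 1182 and 255.7 to 3239 in the 3 groups. Over the 12 libraries, Rsad2 had a Pearson r of 0.933 (permutation p 1e-05, the smallest that 100000 permutations can give) and a Spearman rho of 0.895 (permutation p 0.00021). Isg15 had an r of 0.877 (permutation p 0.00024) and a rho of 0.818 (permutation p 0.00208). Adjusted over all 10878 genes related in this way, rho had a p of 0.0326 for Rsad2 and 0.0662 for Isg15. At that threshold 165 genes, or 1.52%, were related, and Rsad2 was 1 of the 33 members among them. Centred on the group means, r was 0.947 and 0.903. Without the 2 libraries farthest from the median of the markers, r was 0.881 for Rsad2 and 0.743 for Isg15. Oasl2 had an r of 0.613, which fell to 0.132 without those 2 libraries and so rests on them. The part of red cell precursors in these values was not tested.

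**Figure D4:**
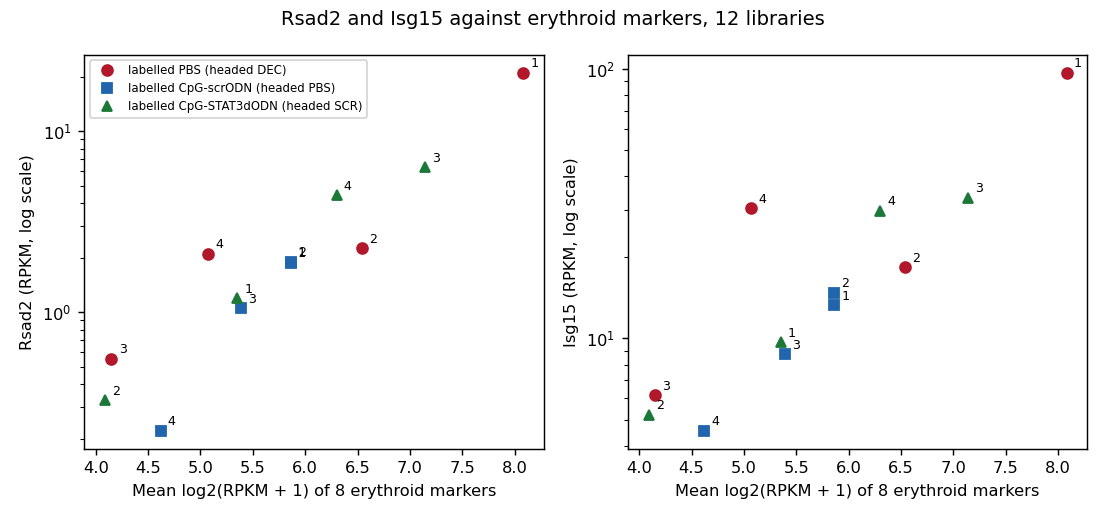
Isg15 and Rsad2 in RPKM on a log axis against the mean log2(RPKM + 1) of 8 erythroid markers, with 1 point per library, coloured by label. In both panels replicate 1 labelled PBS, at a marker mean of 8.08, is the highest point, and values rise with the marker mean across the 3 labels. Replicate 4 labelled PBS lies above that rise for Isg15, at 30.4 RPKM and a marker mean of 5.07.

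The PYHIN proteins sense or bind DNA in the nucleus, and Sp100 is a core protein of PML nuclear bodies. Of these 3 genes Ifi203 was called in both comparisons with the label PBS. Ifi203 (chr1:173920400-173942866) was at 5.66, 3.91, 4.12 and 5.76 RPKM in replicates 1 to 4 labelled PBS, 0.772, 0.957, 0.816 and 0.813 in those labelled CpG-scrODN and 1.60, 0.677, 1.37 and 0.848 in those labelled CpG-STAT3dODN. The lowest library labelled PBS, at 3.91 RPKM, was well above the highest of the other 8, at 1.60. The differences were -1.66 ± 0.16 (SE, adjusted p by limma 0.000129) and -1.47 ± 0.16 (adjusted p 0.000661), the smallest p-values of the set, and both calls held when any 1 library was left out. With the B cell marker mean as a covariate the difference kept its sign, at -0.96 in both comparisons, with adjusted p-values of 0.252 and 0.132.

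Sp100, the most abundant of the 3, was at 18.7, 15.1, 22.3 and 27.9 RPKM in replicates 1 to 4 labelled PBS, 14.5, 11.8, 11.5 and 14.3 in those labelled CpG-scrODN and 13.6, 17.1, 13.1 and 9.51 in those labelled CpG-STAT3dODN. The label PBS lay above the label CpG-scrODN without overlap and overlapped with the label CpG-STAT3dODN. The differences were -0.62 ± 0.19 and -0.61 ± 0.19 (SE), with adjusted p-values by limma of 0.116 and 0.2. The third gene, Ifi204, spanned 0.463 to 5.12 RPKM, and its differences were -0.56 and -0.71, neither past the threshold.

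Among 8 genes of other or less settled function, 6 were tested and Ifi27l2a and Epsti1 were called in both comparisons with the label PBS. Ifi27l2a (chr12:103433873-103443680), a small interferon-induced membrane protein, was at 6.37, 3.55, 3.31 and 20.4 RPKM in replicates 1 to 4 labelled PBS, 0.602, 0.669, 0.630 and 0.588 in those labelled CpG-scrODN and 0.841, 0.436, 0.827 and 1.49 in those labelled CpG-STAT3dODN. It had the largest fold change of the called genes, and replicate 4 labelled PBS alone was at 20.4 RPKM. The differences were -2.20 ± 0.41 (SE, adjusted p by limma 0.00891) and -2.002 ± 0.41 (adjusted p 0.0272). The call against CpG-STAT3dODN was lost without replicate 1 labelled PBS or replicate 1, 2 or 3 labelled CpG-STAT3dODN, at adjusted p-values from 0.0702 to 0.107.

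Epsti1 (chr14:77904239-78002656), named after the interaction of epithelial and stromal cells, was at 3.07, 2.28, 2.59 and 3.35 RPKM in replicates 1 to 4 labelled PBS, 0.942, 0.848, 0.718 and 0.422 in those labelled CpG-scrODN and 1.18, 0.699, 1.02 and 0.628 in those labelled CpG-STAT3dODN. Its 4 libraries labelled PBS lay within 2.28 to 3.35 RPKM and no other library passed 1.18. The differences were -1.14 ± 0.14 (SE, adjusted p by limma 0.00067) and -1.03 ± 0.14 (adjusted p 0.00245), and both calls held when any 1 library was left out. Ifi35, a partner of the protein NMI, was the most abundant gene of this group, at 31.8, 33.4, 31.4 and 29.4 RPKM in replicates 1 to 4 labelled PBS, 32.6, 33.4, 34.03 and 29.1 in those labelled CpG-scrODN and 33.4, 35.3, 34.4 and 32.1 in those labelled CpG-STAT3dODN. The highest of its 12 values was 1.21 times the lowest, and its difference for CpG-scrODN minus PBS was 0.03 (95% interval -0.13 to 0.19). Xaf1, a pro-apoptotic partner of XIAP, spanned 0.738 to 2.89 RPKM, Lgals3bp, a secreted glycoprotein, 2.36 to 10.7 and Tor3a, an ATPase of the endoplasmic reticulum, 7.26 to 13.4. Their differences were -0.57, -0.72 and -0.33 for CpG-scrODN minus PBS, with adjusted p-values by limma of 0.163, 0.116 and 0.134.

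The median SD of log2(RPKM + 1) within the label PBS was 0.425 over the 33 members and 0.212 over all genes. It was 0.141 against 0.111 within the label CpG-scrODN and 0.232 against 0.201 within CpG-STAT3dODN. The 33 include the 8 members that passed the level filter because of the libraries labelled PBS, and no SD was taken without them. Replicate 4 labelled PBS was the highest library of its group for 23 of the 33 (69.7%), against 40.4% of all genes. This is the library low in Fos that also had the highest B cell marker mean, 4.56. Without it and the other library low in Fos, limma called 9 of the 33 lower for CpG-scrODN minus PBS and 4 for CpG-STAT3dODN minus PBS, where 5.28% and 2.71% of all genes were called lower.

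Oasl1 and Trim25 were highest in the same pair of libraries, which carry different labels. Oasl1, an OAS-like protein that restrains translation of Irf7, was at 6.29, 6.95, 6.93 and 14.6 RPKM in replicates 1 to 4 labelled PBS, 6.77, 7.07, 8.23 and 7.995 in those labelled CpG-scrODN and 7.19, 7.46, 6.96 and 20.02 in those labelled CpG-STAT3dODN. Both replicates 4 low in Fos exceeded the other 10 libraries, which lay within 6.29 to 8.23 RPKM. Trim25, the ligase that modifies RIG-I, was at 13.9, 11.9, 14.05 and 32.01 RPKM in replicates 1 to 4 labelled PBS, 11.7, 12.8, 13.5 and 12.9 in those labelled CpG-scrODN and 13.7, 12.9, 13.2 and 19.4 in those labelled CpG-STAT3dODN, with the same 2 libraries above the other 10. Neither gene was called in any comparison. Whether the low Fos and the high Oasl1 and Trim25 share a source was not tested.

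**Figure D5:**
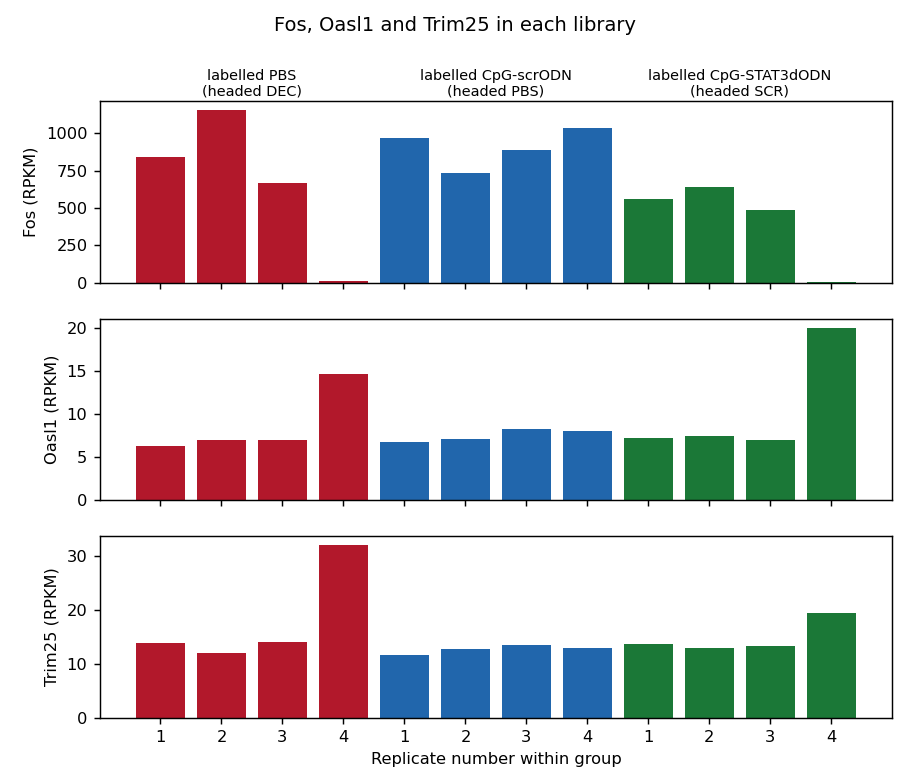
Bars give the RPKM of Oasl1, Trim25 and Fos in each of the 12 libraries, coloured by label and ordered by replicate number. Replicate 4 labelled PBS and replicate 4 labelled CpG-STAT3dODN are the highest for Oasl1 (14.6 and 20.0 RPKM) and Trim25 (32.0 and 19.4 RPKM) and the lowest for Fos.

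The ligands themselves were hardly detected. None of 18 type I interferon genes passed the level filter, the highest value in any library was 0.425 RPKM, and 4 were listed at 0 in all 12. Of 7 receptor and signalling genes, none was called for CpG-STAT3dODN minus PBS. For CpG-scrODN minus PBS Ifnar2, a chain of the receptor, was called lower, as were 4.04% of all genes. Its difference was -0.43 ± 0.09 (SE, adjusted p by limma 0.0216). The call was lost without replicate 1 labelled PBS or without replicate 1, 2 or 3 labelled CpG-scrODN, at adjusted p-values from 0.0623 to 0.0829, and in a fit of the 2 groups alone, at 0.0646. The other receptor chain, Ifnar1, differed by -0.41 for CpG-scrODN minus PBS (adjusted p by limma 0.46). Stat2 and Irf9, which encode subunits of ISGF3, differed by -0.35 (adjusted p 0.157) and -0.34 (adjusted p 0.202). Irf7, the factor that amplifies interferon induction, differed by -0.28 (adjusted p 0.596).

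Of the 15 tested genes that lead to interferon induction, 4 were called lower in each comparison with the label PBS, which share those libraries. They were Tlr9, Unc93b1, Tmem173 and Ikbke. Of all genes tested, 4.04% were called lower for CpG-scrODN minus PBS and 1.83% for CpG-STAT3dODN minus PBS. Tlr9 passed the level filter because of the libraries labelled PBS, so the filter favours this direction for it. It was at 1.74 RPKM or more in those libraries and at most 0.774 in any other. Unc93b1, which carries TLR9 to the endosome, was at 47.97, 37.1, 39.5 and 72.8 RPKM in replicates 1 to 4 labelled PBS, 11.3, 8.95, 7.78 and 9.05 in those labelled CpG-scrODN and 14.97, 9.78, 15.2 and 12.8 in those labelled CpG-STAT3dODN, with differences of -2.25 ± 0.20 and -1.80 ± 0.20 (SE, adjusted p by limma 0.000113 and 0.000818). Tlr9 itself differed by -1.67 ± 0.30 and -1.40 ± 0.30 (adjusted p 0.00784 and 0.0396), from a mean of 3.69 RPKM under the label PBS. The call of Tlr9 for CpG-STAT3dODN was lost without replicate 1 labelled PBS or any 1 library of the other labels, at adjusted p-values from 0.0585 to 0.141. The DNA sensor adaptor STING, encoded by Tmem173, differed by -1.28 ± 0.17 and -0.93 ± 0.17 (adjusted p 0.00101 and 0.0133), and without replicate 2 labelled CpG-STAT3dODN the adjusted p of the latter was 0.0565. The kinase Ikbke differed by -0.98 ± 0.11 and -0.64 ± 0.11 (adjusted p 0.000369 and 0.0104). In a fit of CpG-STAT3dODN and PBS alone, the calls of Tlr9 (0.184), Tmem173 (0.077) and Ikbke (0.0794) were lost. These 4 differed in the same direction as the B cell markers, and with the B cell marker mean as a covariate none of the 4 was called. The sign of the difference then turned for Tlr9 and Tmem173 in both comparisons and held for Unc93b1 and Ikbke. None of 6 feedback inhibitors, Socs1 among them, was called in any comparison.

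A further 45 interferon-stimulated genes outside the set were listed, and 36 were tested. The median difference for CpG-scrODN minus PBS was -0.228 over the 36 and -0.046 over all genes. In that comparison 6 of the 36 were called lower and none higher, where 4.04% of all genes were called lower and 0.11% higher. They were Mndal (PYHIN family, -2.12), Ms4a4c (-2.40), Phf11b (-2.16), Ifitm1 (-1.28), Helz2 (-0.69) and Znfx1 (-0.47). For CpG-STAT3dODN minus PBS 3 were called lower, Mndal (-1.71), Ms4a4c (-2.04) and Phf11b (-2.07). Of all genes, 1.83% were called lower in that comparison and 0.0276% higher. The median difference was -0.125 over the 36 and -0.011 over all genes. Phf11b passed the level filter because of the libraries labelled PBS, at 2.48 RPKM or more there and at most 0.738 in any other. Leaving out single libraries ended the calls of Helz2 (5 libraries, adjusted p 0.0542 to 0.0716), Znfx1 (8 libraries, 0.0576 to 0.118) and Ifitm1 (replicate 3 labelled CpG-scrODN, 0.052) in the first comparison. In the other it ended those of Ms4a4c (9 libraries, 0.0518 to 0.128) and Phf11b (3 libraries, 0.0502 to 0.0507). Without the 3 libraries numbered 4 the call of Ifitm1 was lost (0.0778). In fits of the 2 groups compared, those of Helz2 (0.0585) and Znfx1 (0.0927) were lost in the first comparison and those of Ms4a4c (0.157) and Phf11b (0.1) in the other. None was called between the labels CpG-STAT3dODN and CpG-scrODN, where library quality weights gave calls for Ifitm1 (1.06, adjusted p by limma 0.00427) and Mndal (0.61, adjusted p 0.00719).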

How the data were processed

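RNA was sequenced in 12 libraries, 4 for each of 3 labels. The RPKM values were made and deposited by the authors, per the file headers, for 24310 named features. The build mm10, TopHat 1.3.1 and Partek 6.12.0713 are named in the submitters' processing notes without their roles, and the annotation behind the values is not given in the sources used here. No pair of files held identical values. Depth was estimated from what 1 read is worth in single-transcript genes. Of their low values 49.9% to 53.9% came out whole within 0.05 of a read, too few to recover reads, so no count test was run.

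Values were analysed as log2(RPKM + 1), which understates the change of low genes. Features at an RPKM of 1 or more in 4 or more libraries entered the fit, 10886 in all. One limma 3.58.1 model (R 4.3.3) held the 3 labels, with moderated variances and an intensity trend. Calls are at a two-sided Benjamini-Hochberg adjusted p under 0.05 over all genes tested, and differences are first label minus second label, with SE or unadjusted 95% intervals. For members under the filter, an exact two-sided permutation test of 4 against 4 libraries was used. The scripts were tested on simulated data. Every called member is given by library, as is the most abundant member of each role. Pathway genes are named if called, and Ifnar1, Ifnar2, Stat2, Irf9 and Irf7 in any case. A further gene of this rule is not reported here. Promoters and coordinates are from RefSeq (GRCm38.p6, which mm10 denotes), matched by symbol for 29 and 41 of the 41 members. In 27 features the symbol had become a date, and these are not named. The members, lists and rules were chosen with earlier results of these data known.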

Additional observations from a re-analysis of the deposited data

Results flagged for a closer look

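In each labelled group the highest and the lowest of the 4 libraries were compared with the rest for every member, 123 combinations in all. In 7 the gap to the nearest library as a share of the group's whole range was above Dixon's 95% critical value for 4 samples, and chance alone gives about 1 in 20.

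Oasl1 was at 14.6 RPKM in replicate 4 labelled PBS, with the other 3 at 6.29 to 6.95, and at 20.0 RPKM in replicate 4 labelled CpG-STAT3dODN, with the other 3 at 6.96 to 7.46. Trim25 was at 32.0 RPKM in replicate 4 labelled PBS against 11.9 to 14.0, and at 19.4 RPKM in replicate 4 labelled CpG-STAT3dODN against 12.9 to 13.7. Herc6 was low in replicate 4 labelled CpG-STAT3dODN, at 2.42 RPKM against 3.69 to 3.98. These 5 values come from the 2 libraries low in Fos.

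Within the label CpG-scrODN, replicate 4 was high for Lgals3bp, at 5.47 RPKM against 3.48 to 3.60. The same library was low for Tor3a, at 7.26 RPKM against 9.44 to 9.85.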

How the results depend on the processing

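Counts of called members under other settings are given for CpG-scrODN minus PBS, then CpG-STAT3dODN minus PBS, whose reported counts are 7 and 4 of 33. Brackets give the share of all genes called in either direction, which was 4.15% and 1.86% for the reported counts. An RPKM floor of 5, which left 16 members, gave 2 and 0 (2.02% and 0.942%). None of the 4 genes called for CpG-STAT3dODN minus PBS passed this floor, so none of them was tested. Of the 7 called for CpG-scrODN minus PBS only Ifitm3 and Samd9l passed it. No level filter gave 7 and 2 (3.39% and 1.5%), and a fit of the 2 groups compared gave 7 and 2 (3.71% and 0.717%). Library quality weights gave 15 and 11 (16.6% and 11.5%), and the B cell marker mean as a covariate 0 and 0 (0% and 0.0551%). For CpG-STAT3dODN minus CpG-scrODN the count was 0, and 2 (5.58%) with quality weights, whose estimation stopped before it converged. Leaving out 1 library gave 4 to 10 (2.56% to 5.14%), 2 to 5 (1.11% to 2%), and 0. The lowest came without CpG-scrODN replicate 3 or 4 for the first count, and without PBS replicate 1 or CpG-STAT3dODN replicate 1, 2 or 3 for the second. Apart from the covariate and single libraries left out, the 11 member calls had 101 values under other settings, of which 93 stayed past the threshold, 8 did not and 0 changed sign.

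With the covariate, differences of called genes changed sign. For CpG-scrODN minus PBS they were then 0.853 for Cmpk2, 0.247 for Ifitm3, 0.077 for Samd9l, 0.476 for Trim30a, 1.573 for Ifi27l2a, 0.191 for Helz2, 1.715 for Ms4a4c, 0.566 for Phf11b, 0.439 for Znfx1, 1.087 for Tlr9, 0.035 for Tmem173 and 0.114 for Ifnar2. For CpG-STAT3dODN minus PBS they were 0.270 for Trim30a, 0.797 for Ifi27l2a, 1.013 for Ms4a4c, 0.649 for Tlr9 and 0.047 for Tmem173. A pseudocount of 0.1 enlarged the first difference to -1.85 for Cmpk2 and -1.84 for Epsti1. The cause was not tested.

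Counts over all genes moved from 452 and 202 to 163 and 76 with the floor of 5, 1812 and 1248 with quality weights, 0 and 6 with the covariate, and 686 and 337 without the 2 libraries low in Fos. The second was 78 in a fit of 2 groups, 392 without the 3 libraries numbered 4, 131 without PBS replicate 1 and 121 without CpG-STAT3dODN replicate 2. The first was 279 without CpG-scrODN replicate 3. Between CpG-STAT3dODN and CpG-scrODN quality weights gave 607.

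Replicate numbers are shared between labels, but nothing says what they mark. Of 12 same-numbered pairs 5 had deviations that correlated above 0.1 (r from -0.341 to 0.817), and 3 of 12 libraries correlated best with their own number. All 3 are numbered 4, with r of 0.817 between PBS and CpG-STAT3dODN, the 2 libraries low in Fos, and 0.193 and 0.151 between CpG-scrODN and each of these. No library with another number correlated best with its own, and what the numbers mark was not tested. Without the 3 libraries numbered 4 the counts were 7, 4 and 0, with 5 of the 7 first calls kept. Of all genes 6.11%, 3.6% and 0% were then called. A replicate block gave 7, 3 and 0 calls, where 4.8%, 1.96% and 0% of all genes were called. Trim30a then had an adjusted p of 0.0704 by limma for CpG-STAT3dODN minus PBS.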

Other observations

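Members that lie next to each other in the genome did not always share a pattern. Rsad2 and Cmpk2 are 12665 bases apart on chromosome 12. Rsad2 was highest in replicate 1 labelled PBS, at 21.0 RPKM, where Cmpk2 was at 2.48. Cmpk2 was highest in replicate 4 labelled PBS, at 4.22 RPKM, where Rsad2 was at 2.11. Oasl2 and Oasl1 are 10898 bases apart on chromosome 5. Oasl2 was highest in replicate 1 labelled PBS, at 11.6 RPKM, and Oasl1 was at 6.29 there, its lowest value of the 12. Oasl1 was highest in replicate 4 labelled CpG-STAT3dODN, at 20.0 RPKM, where Oasl2 was at 3.11. These pairs were picked after their values were seen, and no difference between neighbours was tested.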
